A study of Gossypium hirsutum with 24 samples.

Results

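The transition of cotton anthers from 5 mm to 7 mm flower buds was examined by setting the 3 arrays of 7 mm anthers against the 3 arrays of 5 mm anthers. These 6 arrays were taken by their titles from the 24 arrays of the series, and all probe sets except the Affymetrix and reporter controls entered the comparison. The plant was upland cotton (Gossypium hirsutum), and the labels give no cultivar, genotype or treatment for either group. Anthers were dissected from the buds with a fine needle and frozen in liquid nitrogen, and each RNA sample was hybridised to its own Affymetrix Cotton Genome array. The 3 samples of a size are called biological replicates, with no statement of which plants they came from. Buds without anthers of each size, 8 mm anthers, young leaf and seedlings at 5 days after germination were also measured, 3 arrays each, and are used here only for reference. The study collected anthers before meiosis, when the tapetum is absent, during meiosis, when it is present, and after meiosis, when it has degenerated. No label pairs a bud size with one of these stages, so the groups are named by size.

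Anthers are the male organs in which pollen mother cells pass through meiosis and become microspores. The tapetum is the innermost layer of the anther wall. It surrounds the developing microspores, supplies them with nutrients, enzymes and precursors of the pollen wall, and is then dismantled by programmed cell death. A whole anther also holds outer wall layers, connective tissue and vascular tissue, so each value below is a sum over several cell types. Fewer cells of a type and less RNA per cell cannot be told apart in such samples.

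Of 17666 tested probe sets, 634 carried a single gene symbol, which stood for 495 genes. Every symbol was a locus number that no table here pairs with a product, so no role is stated for any gene. None of the gene lists set up from product names, such as meiosis, pollen wall or photosynthesis, found a member. Levels are the deposited log2 values, on which 1 unit is a doubling, and 2.23 was taken as background.

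One array of 5 mm anthers stood between the sizes. Across probe sets, 5 mm replicate 1 correlated with the other arrays of its own size at r = 0.973 and 0.976, and with the 7 mm arrays at 0.971 to 0.974. The other 2 arrays of 5 mm correlated with each other at 0.988 and with the 7 mm arrays at 0.940 to 0.953. The 3 arrays of 7 mm correlated with each other at 0.989 to 0.995. These correlations run across probe sets, which are no replicates, and are given as a description. To place an array, the fit was made without it. Its level at the probe sets then called was set on a scale from 0% to 100%. The 0% point was the mean of the other arrays of its size, and the 100% point the mean of the other size. At the 1299 probe sets that were higher at 7 mm in the fit without it, 5 mm replicate 1 lay a median 42.3% of the way to 7 mm, and 84.0% of them were displaced towards the 7 mm level. At the 1289 that were lower, it lay 55.4% of the way, and 97.4% were so displaced. The corresponding medians of 5 mm replicates 3 and 4 were -5.52% and -5.27% for the higher probe sets and -27.9% and -16.5% for the lower ones. For these 2 arrays the 0% point includes replicate 1, so their positions are not independent of its own. The 7 mm arrays had medians between -0.247% and 10.8%. Displaced towards the other size were 46.8% to 72.5% of probe sets for the 7 mm arrays, and 16.6% to 38.6% for 5 mm replicates 3 and 4. The median SD over probe sets was 0.22 in the 5 mm group and 0.13 at 7 mm. Counts and genes are given with it, and without it where it matters.

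**Figure D1:**
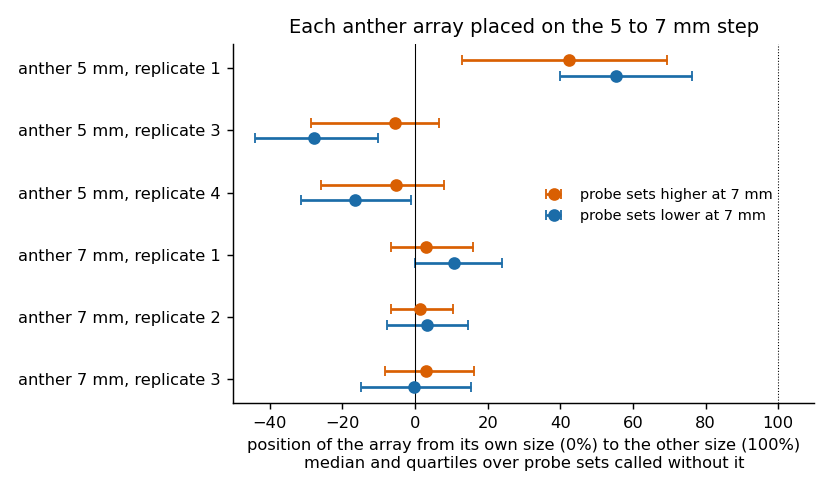
Position of each anther array on the step from 5 to 7 mm, in percent of the distance from the mean of the other arrays of its size (0%) to the mean of the other size (100%). Points are medians and bars are quartiles over the probe sets called in the fit without that array. The 5 mm replicate 1 lies at 42.3% and 55.4%, whereas the medians of the other 5 arrays lie between -27.9% and 10.8%.

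The step raised 1036 probe sets and lowered 804, which is 5.86% and 4.55% of those tested and 10.4% together. A call required an adjusted p under 0.05 from the moderated test of limma, with Benjamini-Hochberg adjustment over all tested probe sets, and a log2 difference of at least 1. Without 5 mm replicate 1 the counts were 1299 and 1289. Without 5 mm replicate 3 they were 813 and 506, and without 5 mm replicate 4 they were 829 and 544. The surplus of higher over lower calls was thus nearly absent without replicate 1. When each array was instead shifted by its hybridisation spike-ins and all lower values were raised to a common floor, 411 were higher and 1181 lower. Under that scaling the median over all tested probe sets was -0.14, against -0.03 as deposited. With the adjusted p alone, 2055 were higher and 2670 lower.

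**Figure D2:**
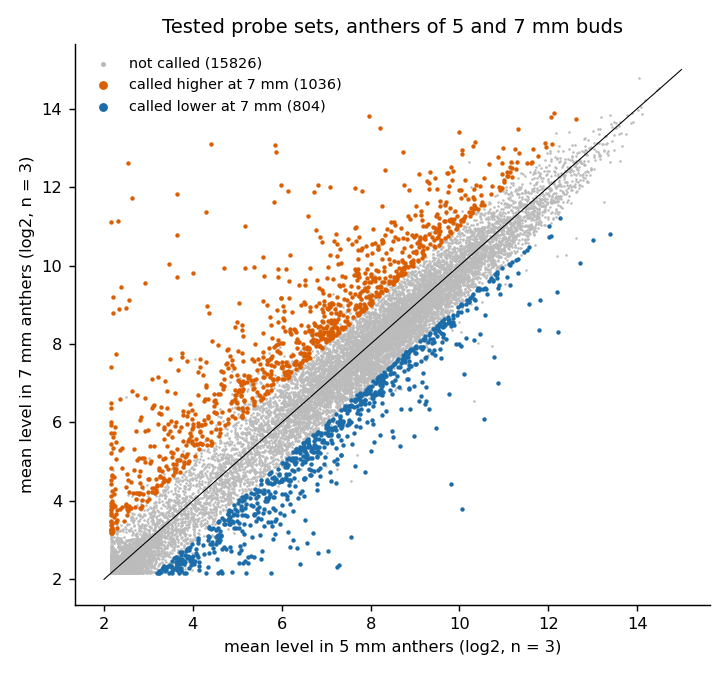
Mean level of each tested probe set in 5 mm anthers (x axis, log2) and 7 mm anthers (y axis, log2), with the diagonal of equal levels. The 1036 higher calls (orange) reach further from the diagonal than the 804 lower calls (blue), up to a difference of 10.08 against -6.28.

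Large changes were mostly increases. Among the calls, 329 probe sets were higher by at least 2 log2 units and 121 were lower by as much. At 3 units the counts were 121 and 27, at 4 units 52 and 9, and at 5 units 31 and 2. Increases were also the more numerous at 3 units with spike-in scaling (81 and 27) and without 5 mm replicate 1 (174 and 55). Most of the 121 increases of at least 3 units started above background, at a median level of 4.44 in 5 mm anthers. At background on all 3 arrays of 5 mm anthers were 11 of them (9.09%), beside 7.2% of all tested probe sets. Levels just over the background of 2.23, such as the 2.27 of LOC107959059, count as above it. Of the 1036 higher calls, 44 (4.25%) were at background on all 5 mm anther arrays. Of the 804 lower calls, 20 (2.49%) were at background on all 7 mm anther arrays, beside 8.06% of all tested probe sets. The median change was 1.59 for the higher calls and -1.33 for the lower ones. With both thresholds tightened, to an adjusted p of 0.01 and 2 log2 units, 299 were higher and 98 lower, and when the test was made against a difference of 1 the counts were 232 and 54.

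**Figure D3:**
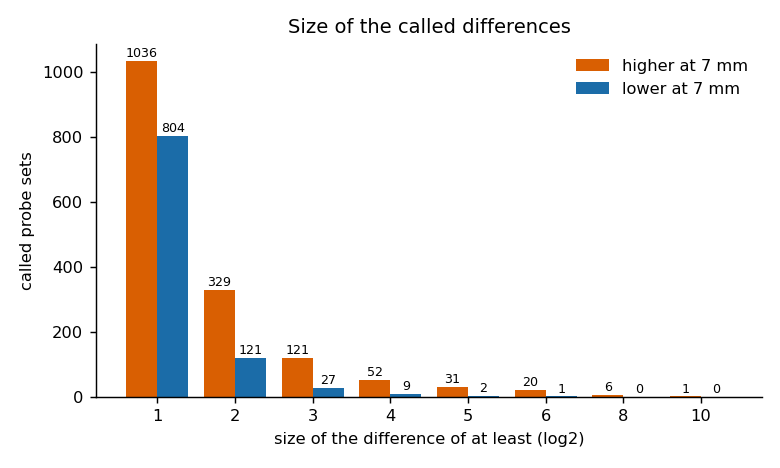
Number of called probe sets (y axis, from 0) whose log2 difference between 7 mm and 5 mm anthers is at least the value on the x axis. Higher calls outnumber lower calls at each size shown, from 1036 against 804 at 1 unit to 31 against 2 at 5 units.

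Among locus genes, 58 probe sets of 53 genes rose and 38 probe sets of 34 genes fell, which is 9.15% and 5.99% of the 634 tested, beside 5.86% and 4.55% of all. Spike-in scaling turned this split, to 19 higher and 45 lower. The genes described below were chosen for large changes among those whose sizes did not overlap on any array, so that property is no finding for them. The 10 that rose did so by 2.31 to 7.07, and LOC107893293, which rose by 2.33 with overlapping sizes, is not among them. Groups of 3 and 3 did not overlap at 43% of all tested probe sets, and 972 higher calls (5.5%) and 742 lower calls (4.2%) had this property.

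LOC107923176 stood at 2.43, 2.45 and 2.26 on the 5 mm arrays and at 9.48, 9.51 and 9.37 on the 7 mm arrays. The 5 mm values lay close to background and the 7 mm values far above it, a rise of 7.07 (SE 0.85, adjusted p = 1.13e-05 by limma), with an SD of 0.11 and 0.08 (n = 3 each). LOC107949717 stood at 6.20, 2.58 and 2.16 at 5 mm and at 9.91, 9.86 and 9.40 at 7 mm. Here 5 mm replicate 1 was well above its group, and the rise of 6.07 (SE 1.12, adjusted p = 0.000642) became 7.35 without it. LOC107959059 held 2.27 on every 5 mm array and 7.86, 7.59 and 7.75 at 7 mm. It held that same 2.27 on 11 of the 24 arrays, so the rise of 5.46 (adjusted p = 2.84e-07) is approximate. The other 5 probe sets of this gene did not pass the test. They gave differences of 1.49, 1.65, 0.03, -0.91 and 0. The identifiers of 3 of them end in s_at, which marks probes that can bind transcripts of related genes. The same ending is carried by the probe sets given below for the rises LOC107887357, LOC107953630, LOC107932953, LOC107945558, LOC107951749 and LOC107942981. It is also carried by those of the falls LOC107933118, LOC107928766, LOC107928801 and LOC107906148, and by the probe set that rose most of all.

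A further group of genes rose from an already high level. LOC107887357 moved from 9.19, 8.62 and 8.39 to 12.92, 12.84 and 12.93, a rise of 4.16 (SE 0.33, adjusted p = 7.82e-08). LOC107953630 moved from 10.26, 9.93 and 9.77 to 13.44, 13.26 and 13.56, a rise of 3.43 (SE 0.19, adjusted p = 5.99e-10). LOC107932953 moved from 10.18, 9.87 and 10.12 to 12.76, 12.80 and 12.96, a rise of 2.79. In these 3 genes the spread within either size was small beside the step between them. LOC107945558 stood at 10.60, 8.23 and 9.18 at 5 mm, with replicate 1 highest, and at 12.35, 12.52 and 12.29 at 7 mm. Its rise of 3.05 was 3.69 without replicate 1 and 2.50 without replicate 3, and another of its 3 probe sets rose by 2.89. The last was at background on every 5 mm array and at 3.46 ± 1.17 (SD, n = 3) at 7 mm. It was also called higher, although its 7 mm arrays did not all lie above its 5 mm arrays.

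LOC107951749 rose by 2.99 (SE 0.45), from a mean of 7.75 ± 0.13 (SD, n = 3) to 10.74 ± 0.11. LOC107942981 rose by 2.37, from 5.77 ± 0.33 to 8.14 ± 0.27, and remained far under its level in leaf, 13.53 ± 0.03. LOC107954983 rose by 2.31 on the probe set with the largest change, from 2.75 ± 0.46 to 5.05 ± 0.31, and by 2.11 and 1.63 on its other probe sets. Its call was lost with spike-in scaling (adjusted p = 0.124). Of the 10 rises, 6 had 5 mm replicate 1 as the 5 mm array nearest to the 7 mm level. All 10 kept their calls when any single array of the 6 was left out.

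Decreases among the locus genes chosen were smaller. LOC107933118 stood at 5.04, 7.45 and 7.19 on the 5 mm arrays and at 2.52, 2.59 and 3.66 on the 7 mm arrays. The lowest 5 mm array was replicate 1, and the change of -3.64 (SE 0.56, adjusted p = 0.000137) became -4.40 without it. LOC107928766 stood at 8.67, 9.83 and 9.93 at 5 mm and at 5.66, 5.34 and 6.56 at 7 mm, a change of -3.63 (SE 0.59, adjusted p = 0.000218). Its 2 groups were well apart, although both were spread over more than 1 unit. LOC107946138 was measured by a probe set of each orientation in 1 cluster. The one that carries the letter A stood at 3.17, 4.89 and 5.78 at 5 mm and at 2.18, below background, on every 7 mm array. It was at least 5.21-fold lower at 7 mm (adjusted p = 0.000182), a bound that was 8.58 without 5 mm replicate 1, 4.73 without replicate 3 and 3.48 without replicate 4, and its call was lost in a fit of the 6 arrays alone (adjusted p = 0.0687). The one that carries the letter S fell by 2.33, from 13.00 ± 0.87 to 10.66 ± 0.18.

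The next falls among them were close in size. LOC107928801 and LOC107946937 fell by 1.93 each, LOC107906148 by 1.88, LOC107930335 by 1.74, LOC107899648 by 1.73, LOC107933763 by 1.64, LOC107898643 by 1.61 and LOC107887365 by 1.56. The tightest of them was LOC107906148, at 7.54, 7.95 and 7.78 in 5 mm anthers and 6.02, 5.80 and 5.83 in 7 mm anthers (SE 0.13, adjusted p = 1.1e-08). The least certain was LOC107899648, at 4.17, 5.56 and 5.39 and then 2.72, 3.53 and 3.70 (SE 0.55, adjusted p = 0.0268). Its call was lost without 5 mm replicate 3 (-1.47, adjusted p = 0.118) or 4 (-1.55, adjusted p = 0.100), without 7 mm replicate 1 (-1.43, adjusted p = 0.110) or 2 (-1.83, adjusted p = 0.0502), and with spike-in scaling (-1.64, adjusted p = 0.0897). Its other probe set gave -0.03. The other probe set of LOC107933763 gave -0.79 and was not called, because the difference was under 1 unit. LOC107930335 lost its call in a fit of the 6 arrays alone (adjusted p = 0.077). In 10 of the 11 falls, 5 mm replicate 1 was the 5 mm array nearest to the 7 mm level, with LOC107946937 the exception. All but LOC107899648 kept their calls when any single array of the 6 was left out.

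**Figure D4:**
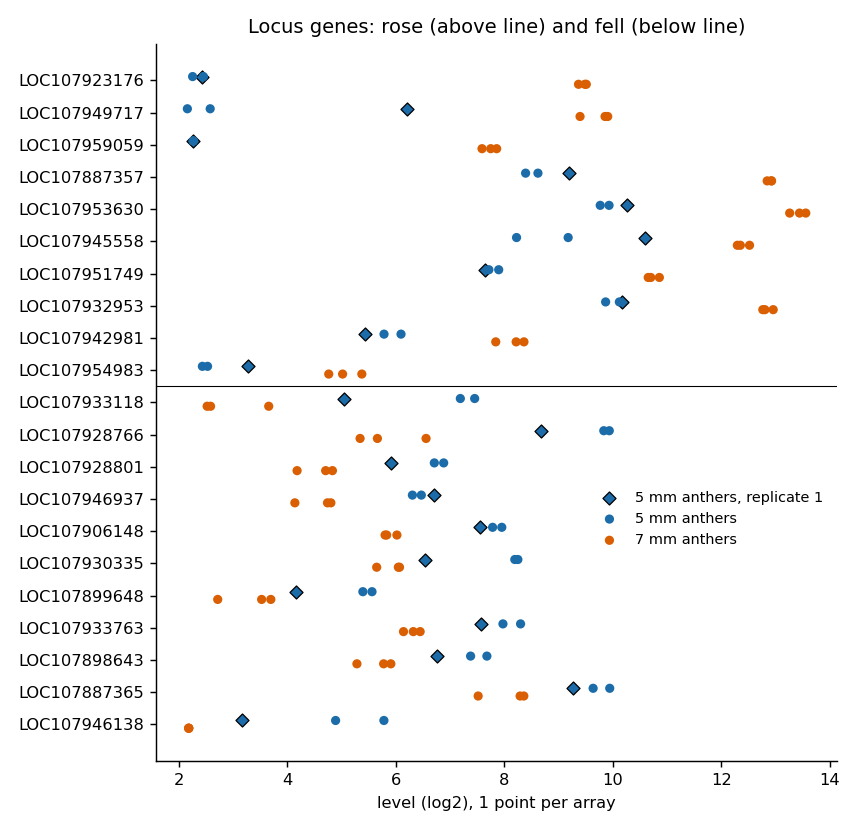
Level (x axis, log2) of the named locus genes on each of the 6 arrays, with 1 point per array and 5 mm replicate 1 as a diamond. The 10 genes above the line rose and the 11 below it fell, and blue and orange points do not overlap in any row, which was a condition for choosing them.

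The largest changes of all belonged to probe sets without a gene symbol, whose identifiers label the heat map of mean levels. The one that rose most stood at 2.74, 2.74 and 2.16 in 5 mm anthers and at 12.31, 12.22 and 13.33 in 7 mm anthers, a rise of 10.08 (SE 0.40, adjusted p = 3.15e-12). It was at 13.74 ± 0.37 (SD, n = 3) in 8 mm anthers, at 6.16 ± 0.39 in 8 mm buds without anthers, and at 2.18 in leaf and in seedling. The next moved from 2.46, 2.97 and 2.46 to 11.82, 11.87 and 11.45, a rise of 9.08 (SE 0.60, adjusted p = 6.38e-09). It was at 11.24 ± 0.69 in 8 mm anthers and was at 6.99 ± 0.14 in seedling. In the other direction, the probe set that fell most stood at 8.53, 10.81 and 10.83 and then at 4.43, 3.72 and 3.19, a change of -6.28 (SE 1.42, adjusted p = 0.0031). The next fall was at 7.97, 10.79 and 10.64 in 5 mm anthers and at 4.65, 3.74 and 4.86 in 7 mm anthers, a change of -5.38 (SE 1.41, adjusted p = 0.00852). Replicate 1 was again the lowest 5 mm array of both, and without it the changes were -7.04 and -6.30.

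Where several probe sets of a locus gene were called, their calls ran the same way. Of 101 locus genes with at least 2 tested probe sets, 26 had a call. In 5 of these all probe sets were called, in 21 only some were, and in 0 were the calls opposite. Opposite calls were possible only in genes with 2 or more called probe sets, which were fewer than the 26. Probe sets are further grouped by their identifiers into sequence clusters, of which 1746 had at least 2 tested members. Of these clusters 280 held a call, 54 held 2 or more calls, and 2 held calls in opposite directions. Members of a gene or cluster can share transcripts and are not independent.

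The step in anthers was compared with the step in buds without anthers of the same sizes. Anther and bud arrays were not paired in the fit, and at 5 mm their replicate numbers match only in part. The difference between the steps, fitted as an interaction in the same model, passed the test for 1366 probe sets (7.73%). It was upward in anthers for 728 probe sets (4.12% of those tested) and downward for 638 (3.61%). Of the 1036 probe sets that rose in anthers, 591 (57%) passed this test, and of the 804 that fell, 377 (46.9%). These tests use the same anther arrays as the step itself. All 31 probe sets that rose by at least 5 units passed it, as did 26 of the 27 that fell by at least 3 units. The bud step itself, on separate arrays, had 129 higher calls (0.73%) and 41 lower calls (0.232%). Of the anther rises, 15 (1.45%) also rose in buds, which is 11.6% of the bud rises. Of the anther falls, 7 (0.871%) also fell there, 17.1% of the bud falls. Opposite steps were called for 6 anther falls that rose in buds (0.746%) and 2 anther rises that fell there (0.193%). None of the 21 named locus genes had a call in buds. The difference of steps passed the test for 9 of the 10 named rises and 9 of the 11 named falls. It did not for LOC107954983 (1.53, adjusted p = 0.11), LOC107928801 (-1.02, adjusted p = 0.14) and LOC107887365 (-1.33, adjusted p = 0.0584). LOC107928801 had bud levels of 8.92 ± 0.21 at 5 mm and 8.01 ± 0.33 at 7 mm.

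The named genes had unlike levels in the other tissues. The called probe set of LOC107959059 had means of 2.21 to 3.18 in every group except 7 mm anthers, and its 8 mm anther arrays read 4.99, 2.29 and 2.27. Other probe sets of that gene were brighter, with means up to 9.72 in 5 mm anthers. LOC107923176, in contrast, was at 6.57 ± 0.09 (SD, n = 3) in seedling and at 7.03 ± 2.84 in 8 mm anthers, where the arrays read 9.43, 7.76 and 3.90. LOC107949717 was similarly uneven in 8 mm anthers, with 8.74, 7.54 and 2.81. LOC107953630 was at 12.91 ± 0.51 in 8 mm anthers and at 9.73 to 10.40 in buds, leaf and seedling. LOC107942981 and LOC107954983 had lower means in anthers of each size than in buds, leaf or seedling. LOC107933118, which fell, was at 12.79 ± 0.09 in leaf and 12.33 ± 0.01 in seedling. LOC107928766, which also fell, was at 9.04 ± 1.85 in 8 mm anthers, near its 5 mm mean of 9.48 ± 0.70. LOC107946937 stood at 2.74 ± 0.21 in 8 mm anthers, below its 7 mm mean of 4.56 ± 0.37.

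**Figure D5:**
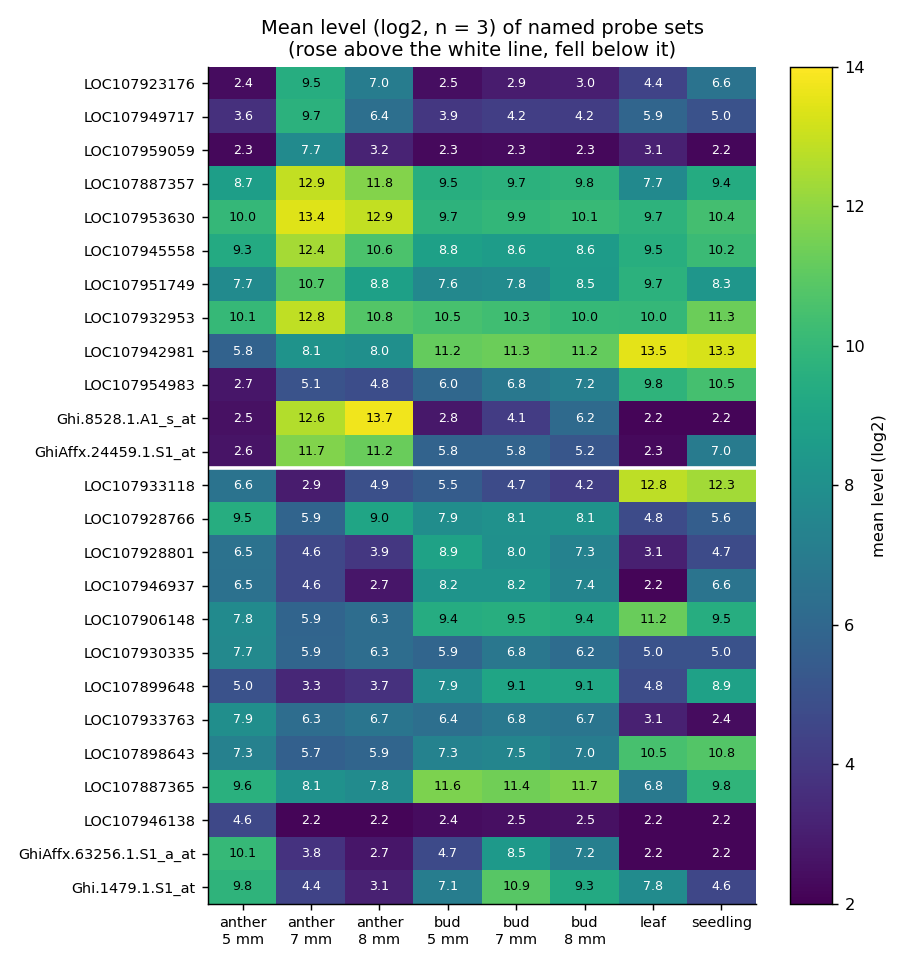
Mean level (colour and number, log2, n = 3) of the named locus genes and of the 4 probe sets without a symbol (labelled by identifier) in all 8 groups; buds are buds without anthers. Each row is read across, because levels of different probe sets are not comparable. In the upper rows 7 mm anthers exceed 5 mm anthers by 2.31 to 10.08, and in the lower rows they are below them by 1.56 to 6.28.

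Over all probe sets that rose, the median level was 6.50 in 5 mm anthers, 8.36 in 7 mm anthers and 7.97 in 8 mm anthers, and it was 7.09 and 7.23 in 5 and 7 mm buds, 7.30 in leaf and 7.46 in seedling. Over those that fell it was 6.86, 5.37 and 5.67 in anthers of 5, 7 and 8 mm, and 6.79 and 6.77 in 5 and 7 mm buds. All tested probe sets had medians of 7.06 and 7.11 in 5 and 7 mm anthers. At background on all 15 arrays of buds, leaf and seedling were 32 of the rises (3.09%) and 11 of the falls (1.37%), beside 1.81% of all tested probe sets. Such probe sets entered the test only through anther arrays, so these shares depend on the filter and no conclusion is drawn from them. Above background in 7 mm anthers alone were 2 of the 1036 rises, beside 17 of all 17666 tested probe sets. These too passed the filter through those arrays alone.

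Calls were unevenly spread over kinds of probe set. Probe sets designed on upland cotton sequences (identifiers starting Ghi or GhiAffx) had 860 higher and 727 lower calls among 14307, or 6.01% and 5.08%. Those designed on the wild diploid G. raimondii (Gra or GraAffx) had 157 and 75 among 3254, or 4.82% and 2.3%, and their median level in 5 mm anthers was 3.00 against 7.48. With spike-in scaling lower calls were the more numerous in both, 348 against 1078 and 55 against 100, and for upland cotton also without 5 mm replicate 1, 1082 against 1157. The share of calls also differed between ranges of level. Among 3524 probe sets with a mean level of at most 3 over the 24 arrays, 2.21% were higher and 2.61% lower. Among 4548 between 6 and 8 the shares were 7.19% and 6.18%, and among 1639 between 10 and 12 they were 5.43% and 1.46%. The brightest range, above 12, had 1.04% higher and 0% lower among 192.

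Levels of bud-defined and leaf-defined probe sets were read in the anther samples. Both lists were defined without any anther array. Whether anther cells themselves express these transcripts was not tested, so the lists do not measure other tissue. The 322 bud-defined probe sets, whose bud mean exceeded leaf and seedling by at least 3 units, averaged 7.51 to 7.74 on the 5 mm anther arrays and 7.26 to 7.56 on the 7 mm arrays, so the sizes overlapped. The buds themselves averaged 7.90 to 9.24. The 7.90 was that of 5 mm bud replicate 2 alone, and the next lowest bud array, 8 mm replicate 6, averaged 8.71. Of these probe sets 16 (4.97%) rose and 50 (15.5%) fell, beside 5.86% and 4.55% of all tested probe sets, and their median change was -0.19. Falls were also the more numerous under quantile normalization (16 and 53), median centring (16 and 50) and spike-in scaling (9 and 50). The 577 leaf-defined probe sets, at least 3 units higher in leaf than in buds, averaged 4.36 to 4.40 in 5 mm anthers and 4.36 to 4.44 in 7 mm anthers, against 9.32 to 9.60 in leaf. Of these 50 (8.67%) rose and 58 (10.1%) fell, beside the same 5.86% and 4.55% of all, a split that was 49 and 45 with the poly-A spike-in covariate. The part of other tissue in the calls was not tested.

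Controls of RNA and labelling quality were also compared between the sizes. The mean 5′ level of the poly-A spike-ins minus their 3′ level was -1.35, -2.96 and -1.38 on the 5 mm arrays and -1.48, -0.94 and -0.97 on the 7 mm arrays. These values overlapped between the sizes, and the largest gap was that of 5 mm replicate 3. With that difference as a covariate, an alternative chosen after seeing the data, 938 probe sets were higher and 656 lower. The 3′ level of the poly-A spike-ins was 7.36 ± 0.21 (SD, n = 3) at 5 mm and 8.09 ± 0.26 at 7 mm. The 3′ actin control stood at 10.63 ± 0.23 and 10.26 ± 0.03, and the 3′ ubq11 control at 12.39 ± 0.12 and 12.22 ± 0.03. The sizes overlapped in none of these 3′ controls, beside 43% of all tested probe sets without overlap. The hybridisation spike-ins were at 9.30 ± 0.28 and 9.56 ± 0.43 and overlapped.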

How the data were processed

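The 24 RNA samples were labelled by in vitro transcription from the 3′ end for 1 Affymetrix array each, per the labels' protocols. The authors deposited 1 log2 value per probe set and array, computed with GCRMA according to the submitters' processing notes, which name no version. GCRMA estimates background binding from the probes' bases, makes arrays comparable and combines the probes of a set, and 26.2% of all values stand at the table's lowest value, 2.16, which compresses differences near it. No scanner files were used, so detection calls and scan batches were not examined. The number of arrays limits the precision.

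The table held 24132 probe sets. The 155 controls were left out. Background was the 95th percentile of the 69 reporter and tag controls, for which no target was added per the labels. Testing was limited to probe sets above it on 3 or more arrays, which left 17666 of 23977. With limma 3.58.1 (R 4.3.3), 8 group means were fitted over the 24 arrays and tested two-sided, and the 7 mm minus 5 mm anther contrast and its difference from the bud contrast were read from it. A group at or below background on all 3 arrays gave a fold as a lower bound. The fit was tested on simulated data. Summaries used pandas 2.3.3 and figures matplotlib 3.10.9.

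Genes came from the platform annotation: 697 of 743 listed probe sets had 1 symbol, all found among the genes of Gossypium_hirsutum_v2.1, whereas 46 had several. That assembly served for names and for which genes neighbour each other, and none of its coordinates are printed, because the platform annotation names no build. Named were, with both groups measured and not overlapping, 10 locus genes in each direction by size of change, up to 4 per direction with a bound, and 2 probe sets without a symbol per direction. The comparison, lists and rules were chosen with earlier results of these data known. Alternatives covered the filter, floor, scaling, variance prior, array weights, arrays fitted, thresholds, probe set type, replicate number as a block, a poly-A covariate and each array left out.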

Additional observations from a re-analysis of the deposited data

Results flagged for a closer look

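The step from 5 to 7 mm differed between anthers and the rest of the bud, by the interaction test of limma, for 18 of the 21 named locus genes, against 7.73% of all tested probe sets. The genes were chosen for a large step in the same anther arrays, so the share is no independent evidence. The log2 step in anthers minus that in buds was 6.64 for LOC107923176, 5.80 for LOC107949717, 5.45 for LOC107959059, 3.98 for LOC107887357, 3.24 for LOC107953630, 3.23 for LOC107945558, 2.99 for LOC107932953, 2.77 for LOC107951749 and 2.22 for LOC107942981. It was -3.82 for LOC107928766, -2.95 for LOC107899648, -2.86 for LOC107933118, -2.60 for LOC107930335, -2.54 for LOC107946138, -2.06 for LOC107933763, -1.97 for LOC107906148, -1.94 for LOC107946937 and -1.73 for LOC107898643.

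Some of these calls were lost when a single array was left out, for each of several arrays in turn. LOC107949717 lost its call without 5 mm anther replicate 3 (5.26, adjusted p = 0.0702) or 4 (5.05, adjusted p = 0.0704), without 7 mm anther replicate 2 (5.73, adjusted p = 0.0505) and without 5 mm bud replicate 2 (5.27, adjusted p = 0.0531). LOC107933118 lost it without 5 mm anther replicate 3 (-2.41) or 4 (-2.55), 7 mm anther replicate 1 (-2.66) or 2 (-2.69), 5 mm bud replicate 4 (-2.68) and 7 mm bud replicate 3 (-2.37), and with the poly-A covariate (-2.35). LOC107899648 lost it without 5 mm anther replicate 3 (-2.69) or 4 (-2.77), 7 mm anther replicate 1 (-2.65) and 5 mm bud replicate 2 (-2.45). With spike-in scaling these 3 genes and LOC107945558, LOC107951749 and LOC107942981 lost it.

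The 4 probe sets without a symbol differed most: 8.74 and 9.07 for the 2 that rose most, -10.03 for the one that fell most and -9.17 for the next. Both falls had uneven bud arrays, and without 5 mm bud replicate 2 the values were -8.75 and -6.76, and without replicate 3 they were -12.03 and -11.31. The smaller was not called when tested against a 1-unit difference (adjusted p = 0.0524). The larger fall read 2.16, 8.70 and 3.28 in 5 mm buds and 8.92, 9.23 and 7.26 in 7 mm buds. The smaller fall read 2.28, 11.37 and 7.63, and then 10.99, 10.99 and 10.67.

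A reporter control, for which no target was added per the labels, averaged 14.2 over the 24 arrays, and 14.08 to 14.40 in the anthers of 5 and 7 mm. The next brightest of these controls averaged 2.44.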

How the results depend on the processing

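The counts are given as higher calls, lower calls and calls of the difference of steps from buds; the values used above are 1036, 804 and 1366. Spike-in scaling gave 411, 1181 and 670, the adjusted p alone 2055, 2670 and 2015, tightened thresholds (0.01 and 2) 299, 98 and 303, the test against a 1-unit difference gave 232, 54 and 128, and without s_at and x_at probe sets there were 499, 489 and 749 among 9185. Without 4 arrays that stood apart (anther replicate 1 at 5 mm and, among buds, replicate 2 at 5 mm, 3 at 7 mm and 6 at 8 mm) there were 1568, 1369 and 2165. Leaving out each anther array in turn gave 813 to 1299, 506 to 1289 and 885 to 2129, the extremes being 5 mm replicates 3 and 1, and leaving out bud arrays gave 1293 to 1613 for the last count. Fewer probe sets tested or fewer arrays account for some of these shifts by construction; the cause of the others was not tested. The remaining alternatives kept each count within 1.5 times, including array weights (1385, 1172 and 1932), whose estimation stopped before convergence. Of the 1036 and 804, 992 and 786 were also called without 5 mm replicate 1. With the replicate number as a block the counts were 871, 687 and 1145. The numbers were not taken as pairs: 5 mm and 7 mm anthers share only numbers 1 and 3, and the deviations of same-numbered arrays from their group means correlated at -0.23 and -0.15 across probe sets. Of 539 recomputed values of the 25 named probe sets, 511 kept direction and call, 28 kept direction only and 0 reversed. Probe sets near the lowest value and a group of 3 limit what could be called.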

Other observations

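The table holds 4 probe sets whose identifiers start with GhirRNA, named here after their values were seen. GhirRNA.4.1.S1_s_at read 7.76, 12.78 and 2.16 in 5 mm anthers and 3.01, 6.18 and 4.31 in 7 mm anthers, a range over replicates wider than the difference of -3.07 (adjusted p = 0.364 by limma). GhirRNA.3.1.S1_s_at was higher at 7 mm by 1.03 (adjusted p = 0.00408), and GhirRNA.2.1.S1_s_at and GhirRNA.1.1.S1_at differed by 0.98 and 0.33 without passing the test.

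On 7 mm anther replicate 3, 77 probe sets lay at least 2 log2 units above both other arrays of the group and 1 lay as far below, against 1 to 3 either way on the other 2 arrays. On 5 mm replicate 1 the counts were 174 above and 42 below.

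Of 495 tested locus genes, 53 had a higher call and 34 a lower call. Among these called genes, 0 pairs lay within 2 protein-coding genes of each other in the gene order of the assembly. The same count over all tested locus genes was not made, so no conclusion is drawn from this.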
